A study of Mus musculus with 8 samples.

Results

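The core autophagy machinery was examined as a list of 40 genes, from the kinase complex that starts an autophagosome to the receptors that load it with cargo. Members were matched to the table by gene symbol. Of these, 39 were found in the table of 21759 genes, all 39 were counted well enough to be tested among 13474 genes, and Atg101, a subunit of the initiating complex, was not analysed here. Kidney RNA of 8 male mice was sequenced in bulk. All 8 were knock-in animals, 8 months old, of a model of MUC1 kidney disease, which is inherited, affects tubules and interstitium and is caused by a frameshifted, misfolded MUC1 protein. Of these, 4 were dosed with BRD4780, a small molecule named AGN50 in the sample titles, at 50 mg/kg every day for 7 days, and 4 were given saline vehicle on the same schedule. The labels name neither the allele nor the genetic background of the knock-in, and no mice without it entered these comparisons. BRD4780 is known as a ligand of TMED9, a cargo receptor of the early secretory pathway.

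In macroautophagy a double membrane grows around cytoplasm or an organelle, closes and fuses with a lysosome, where the content is digested. The ULK1 kinase complex starts the process, a class III phosphatidylinositol 3-kinase marks the membrane with the lipid PI3P, and ATG2 and ATG9 proteins supply further lipid. A conjugation cascade that resembles ubiquitination then attaches LC3 and GABARAP proteins to the membrane, and receptors such as p62 (Sqstm1) link them to cargo. Tubule cells of the kidney depend on autophagy to maintain their mitochondria and to limit protein aggregates. Much of its control lies in phosphorylation, lipidation and turnover of the proteins, which transcript counts do not record.

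Library totals were 5.74 to 28.2 M expected counts in the BRD4780 group, where replicate 4 was the shallowest, and 16.6 to 28.5 M in the vehicle group. BRD4780 replicate 3 stood nearest to the vehicle libraries, with 55.6% of all tested genes inside the vehicle range, against 32.9% to 37.6% in the other treated libraries. Proximal tubule markers summed to 41693 to 68230 CPM (counts scaled to a common library total) with BRD4780 and 62647 to 71281 CPM with vehicle, as is usual for whole kidney, and no proximal marker was at 0. Most of this sum was the gene Kap, at 25883 to 44577 CPM with BRD4780 and 41928 to 49818 CPM with vehicle. Levels are CPM scaled by TMM, and n = 4 animals per group throughout.

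No autophagy gene passed the threshold of an adjusted p under 0.05 between BRD4780 and vehicle kidneys. By edgeR's quasi-likelihood test 0 of 39 members were called, where 2.92% of all genes tested were called, 310 higher (2.3%) and 84 lower (0.623%). At an unadjusted p under 0.05 there were 5 members (12.8%), all with positive fold changes, and 0 with negative ones. Of all genes 24.6% were under that p, 13.9% with positive and 10.7% with negative fold changes. DESeq2 called 1 member (Atg2b) and limma voom with sample weights called 5, where these tools called 10.5% and 23.4% of all genes. The fold changes were small. Their median size was 0.10 on the log2 scale, against 0.18 over all genes. Over the 8280 tested genes within the members' range of mean level it was 0.15. No member reached 1.5-fold, a size that 10.4% of all genes exceeded. A p that misses the threshold does not show that a gene was the same in both groups.

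The 95% intervals bounded most differences to within 1.5-fold, but did not exclude smaller differences for every member. The interval lay inside 1.5-fold in either direction for 38 of the 39 members, against 57.6% of all genes tested, and inside 2-fold for 39, against 81.9%. Interval width follows the standard error, whose median was 0.092 for the members and 0.132 over all genes. Over the 8280 genes within the members' range of mean level it was 0.102, and the shares inside were not counted for these. The exception to the 1.5-fold bound was Optn, whose interval reached 1.55-fold. Some intervals inside that bound came near it. That of Atg2a reached 1.48-fold, and that of Atg4c reached down to 0.689 of the vehicle level. Across members the signed log2 fold changes ran from -0.24 (Atg5) to 0.38 (Optn), with a median of -0.04 against 0.01 over all genes. Of the members 15 had positive and 24 negative values, where 51.6% of all genes were positive.

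**Figure D1:**
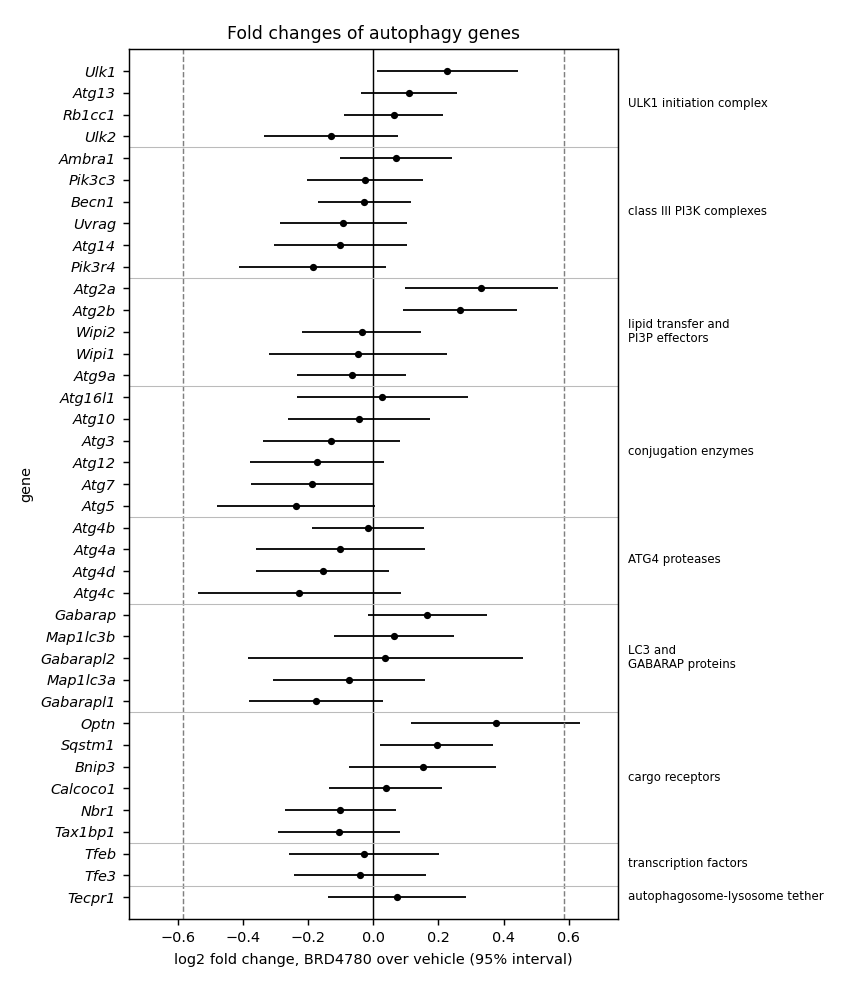
Log2 fold change (BRD4780 over vehicle, points) with its 95% interval (lines) for each of 39 autophagy genes, grouped by role, with dashed lines at 1.5-fold in either direction. Intervals lie inside the dashed lines for every gene except Optn, at the top of the cargo receptors.

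Cell type markers of these libraries differed between the groups, and in bulk RNA a change in the number of cells cannot be told apart from a change in RNA per cell. Podocyte markers (4 of 11 higher, 0 lower) summed to 233 to 345 CPM with BRD4780 and 74.6 to 168 CPM with vehicle, and endothelial markers (4 of 12 higher, 0 lower) to 401 to 516 CPM with BRD4780 and 202 to 359 CPM with vehicle. Thick ascending limb markers (0 of 9 higher, 3 lower) summed to 2716 to 4206 CPM with BRD4780 and 3872 to 5057 CPM with vehicle. Erythrocyte markers (0 of 3 called) summed to 154 to 782 CPM with BRD4780 and 477 to 1576 CPM with vehicle, and among proximal tubule, stromal, immune and adipocyte markers 0 were called. Of 11 markers of the distal tubule and collecting duct 1 was higher and 0 lower, and they summed to 1376 to 2020 CPM with BRD4780 and 1357 to 1521 CPM with vehicle. The part of these markers in the values of the autophagy genes was not tested.

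The initiating kinase complex was represented by 4 members. Ulk1, the kinase that receives signals from mTORC1 and AMPK (chromosome 5, 110784488 to 110810097, minus strand, mm10), stood at 64.9, 50.2, 52.4 and 62.9 CPM with BRD4780 and at 49.4, 47.3, 46.7 and 52.8 CPM with vehicle. Replicates 1 and 4 of the treated group were above every vehicle library, while the groups overlapped in replicates 2 and 3. The log2 fold change was 0.23 ± 0.10 (SE; 1.17-fold, edgeR adjusted p = 0.186). Its paralog Ulk2 had the opposite sign, at 35.9 ± 4.0 CPM with BRD4780 and 39.4 ± 2.3 CPM with vehicle (SD, n = 4 per group). The ratio of Ulk1 to Ulk2, chosen after its values were seen and given without a test, was 1.99, 1.39, 1.26 and 1.88 with BRD4780 and 1.246, 1.149, 1.296 and 1.302 with vehicle. It was above the vehicle range in treated replicates 1, 2 and 4 and inside it in replicate 3. Of the scaffold subunits, Atg13 lay higher in every treated library than in any vehicle library by a small margin (61.7 ± 1.7 CPM with BRD4780 and 57.2 ± 2.5 CPM with vehicle, SD, n = 4 per group, edgeR adjusted p = 0.327), and Rb1cc1, which encodes FIP200, was at 46.2 ± 2.0 CPM with BRD4780 and 44.2 ± 1.6 CPM with vehicle.

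In the class III PI3-kinase complexes the 6 members had log2 fold changes between -0.19 and 0.07. Becn1 (beclin 1), the regulatory subunit, varied little, at 109.5, 104, 106 and 103 CPM with BRD4780 and 112, 107, 109 and 103 CPM with vehicle. The ranges coincided almost entirely, and the fitted ratio was 0.981 of the vehicle level with a 95% interval of 0.889 to 1.08. Pik3r4, the VPS15 scaffold of the lipid kinase, was at 21.0, 22.3, 26.9 and 26.3 CPM with BRD4780 and 27.9, 29.5, 25.5 and 26.3 CPM with vehicle. Treated replicates 1 and 2 were below every vehicle library and the other treated libraries inside the vehicle range (log2 fold change -0.19 ± 0.10 SE, edgeR adjusted p = 0.28). The catalytic subunit gene Pik3c3, the targeting subunits Atg14 and Uvrag and the regulator Ambra1 had log2 fold changes of -0.03, -0.10, -0.09 and 0.07, with overlapping groups.

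The smallest p-value of the list belonged to a lipid transfer gene. Atg2b, which encodes a bridge-like protein that passes lipids from the ER to the growing membrane, was at 48.7, 44.3, 45.2 and 43.2 CPM with BRD4780 and at 36.2, 36.1, 37.0 and 41.8 CPM with vehicle. Every treated library was above every vehicle library, with vehicle replicate 4 the closest. Its log2 fold change was 0.27 ± 0.08 (SE; 1.2-fold, 95% interval 1.07 to 1.36, edgeR adjusted p = 0.0851). Its paralog Atg2a was at 64.0, 54.0, 47.4 and 57.9 CPM with BRD4780 and at 41.3, 42.8, 42.2 and 50.8 CPM with vehicle. The groups overlapped because vehicle replicate 4 exceeded treated replicate 3 (log2 fold change 0.33 ± 0.11 SE, 1.26-fold, edgeR adjusted p = 0.101). Exons of Atg2b overlap those of Gskip on the opposite strand. The lipid scramblase gene Atg9a and the PI3P-binding genes Wipi1 and Wipi2 had log2 fold changes of -0.07, -0.05 and -0.04.

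Among the enzymes of the conjugation cascade 5 of 6 fold changes were negative and 0 passed the threshold. Atg7, the activating enzyme of both conjugation branches, was at 31.4, 32.2, 30.5 and 25.9 CPM with BRD4780 and at 34.3, 36.5, 33.1 and 33.6 CPM with vehicle. Every treated library was below every vehicle library (log2 fold change -0.19 ± 0.08 SE, 0.878 of the vehicle level, edgeR adjusted p = 0.204). Atg5, which is joined to ATG12, was at 28.2, 32.3, 38.6 and 33.6 CPM with BRD4780 and at 38.95, 43.2, 34.1 and 40.01 CPM with vehicle. Replicate 3 was the highest treated library and lay inside the vehicle range, and the other treated libraries were below it (log2 fold change -0.24 ± 0.11 SE, edgeR adjusted p = 0.212). Atg12 itself was at 44.2, 53.7, 55.9 and 44.0 CPM with BRD4780 and at 58.0, 57.1, 53.7 and 55.1 CPM with vehicle, with treated replicates 1 and 4 well below the others (edgeR adjusted p = 0.272). The conjugating enzyme genes Atg3 and Atg10 and the scaffold gene Atg16l1 had log2 fold changes of -0.13, -0.04 and 0.03.

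TFEB and TFE3 switch on lysosomal and autophagy genes through the CLEAR element, whose core was searched as TCACGTG on both strands in RefSeq promoters of GRCm38.p6, from 250 bases before to 50 after each annotated start. The 34 matched members had 41 promoters. The core was present in 3 of these 41, in Atg3, Atg7 and Atg14, and in 3.77% of all promoters. The stretches of 250 bases before the start that hold it are shown for the enzymes that act in turn on LC3, with the matches in capitals, from chr16:45158579-45158828 (plus strand) and chr6:114670846-114671095 (plus strand, a start inside the annotated gene).
Atg3: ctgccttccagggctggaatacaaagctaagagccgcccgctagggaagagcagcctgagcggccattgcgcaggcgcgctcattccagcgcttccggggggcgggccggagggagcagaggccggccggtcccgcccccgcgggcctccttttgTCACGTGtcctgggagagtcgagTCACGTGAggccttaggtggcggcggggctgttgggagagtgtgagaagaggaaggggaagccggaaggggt
Atg7: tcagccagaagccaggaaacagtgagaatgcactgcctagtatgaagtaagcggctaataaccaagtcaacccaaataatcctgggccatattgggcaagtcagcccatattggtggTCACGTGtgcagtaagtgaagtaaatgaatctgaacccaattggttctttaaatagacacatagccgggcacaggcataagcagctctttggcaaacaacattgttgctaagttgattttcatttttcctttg
In Atg3 the second stretch of capitals holds a match on each strand, which overlap. A match describes the letters and not binding. The element TGATGNAA, known for ATF4, was in 0 of the members' 41 promoters and 3.97% of all promoters, and the forkhead element GTAAACA in 0 and 3.65%. The antioxidant element core TGACNNNGC was in 4 of the 41, in Atg13, Map1lc3b, Tax1bp1 and Ulk2, and in 12.4% of all promoters. The GC box GGGCGG, not capitalized above, was in 27 of the 41 and in 35.7% of all promoters.

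Neither transcription factor gene passed the threshold. Tfeb was at 25.2, 19.8, 22.1 and 19.7 CPM with BRD4780 and at 20.5, 24.7, 21.8 and 22.0 CPM with vehicle, and its fitted ratio of 0.981 had a 95% interval of 0.837 to 1.151. Tfe3 was at 32.2, 27.9, 31.1 and 28.6 CPM with BRD4780 and at 27.8, 34.8, 30.6 and 30.4 CPM with vehicle (ratio 0.971, 95% interval 0.844 to 1.12). For both genes treated and vehicle libraries were intermixed.

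All 4 genes of the ATG4 proteases, which trim LC3 before conjugation and release it afterwards, had negative fold changes and 0 passed. Atg4d was at 59.1, 48.4, 56.0 and 51.4 CPM with BRD4780 and at 54.9, 67.7, 58.4 and 58.4 CPM with vehicle, with overlapping groups (log2 fold change -0.16 ± 0.09 SE, edgeR adjusted p = 0.315). Atg4c, at 11.03 ± 2.1 CPM with BRD4780 and 13.0 ± 0.8 CPM with vehicle (SD, n = 4 per group), had the lowest CPM of all members (log2 fold change -0.23 ± 0.14 SE, edgeR adjusted p = 0.335). Atg4a and Atg4b had log2 fold changes of -0.10 and -0.02. Of the 50-base stretches of the longest coding transcript of Atg4a, 63.6% also occur in the pseudogene Atg4a-ps, so its counts are less certain.

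The ubiquitin-like proteins that coat the autophagosome come in a GABARAP and an LC3 branch. Per kilobase of annotated exon, Gabarapl1 was the most abundant member in these kidneys, at 542 ± 52 CPM per kilobase with BRD4780 and 612 ± 27 with vehicle (SD, n = 4 per group), and Gabarap followed at 419 ± 31 with BRD4780 and 373 ± 14 with vehicle. These neighbours in the order did not overlap in either group. Gabarapl2 came next within the family at 96.8 ± 25.4 with BRD4780 and 94.6 ± 19.5 CPM per kilobase with vehicle. Map1lc3a (45.2 ± 5.6 with BRD4780 and 47.9 ± 4.7 with vehicle) and Map1lc3b (41.2 ± 3.5 with BRD4780 and 39.5 ± 1.9 with vehicle) followed. Their libraries overlapped with BRD4780, while with vehicle every Map1lc3a value (41.5 to 52.8) was above every Map1lc3b value (36.7 to 40.8 CPM per kilobase). The order depends on annotated length, 5182 bases for Map1lc3b.

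The 2 most abundant paralogs had fold changes of opposite sign. Gabarap was at 576, 597, 505 and 585 CPM with BRD4780 and at 493, 524, 515 and 484 CPM with vehicle. Gabarapl1 was at 913, 955, 1125 and 950.3 CPM with BRD4780 and at 1143, 1168, 1065 and 1078 CPM with vehicle. In both genes treated replicate 3 lay inside the vehicle range and the other treated libraries outside it, above for Gabarap and below for Gabarapl1. Neither passed the threshold, with a log2 fold change of 0.17 ± 0.08 SE for Gabarap (edgeR adjusted p = 0.239) and -0.18 ± 0.09 SE for Gabarapl1 (adjusted p = 0.265). The ratio of Gabarap to Gabarapl1, also chosen after its values were seen, was 0.631, 0.625, 0.449 and 0.616 with BRD4780 and 0.432, 0.449, 0.484 and 0.449 with vehicle.

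Map1lc3b, the LC3 form most used to follow autophagy, was at 189, 229.7, 211 and 225 CPM with BRD4780 and at 209.9, 211, 207 and 190.1 CPM with vehicle. The groups overlapped, and the fitted ratio was 1.04 with a 95% interval of 0.920 to 1.19. Map1lc3a was at 51.1, 50.9, 57.1 and 42.0 CPM with BRD4780 and at 53.8, 58.7, 54.2 and 46.1 CPM with vehicle, also overlapping (ratio 0.950, 95% interval 0.808 to 1.12).

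**Figure D2:**
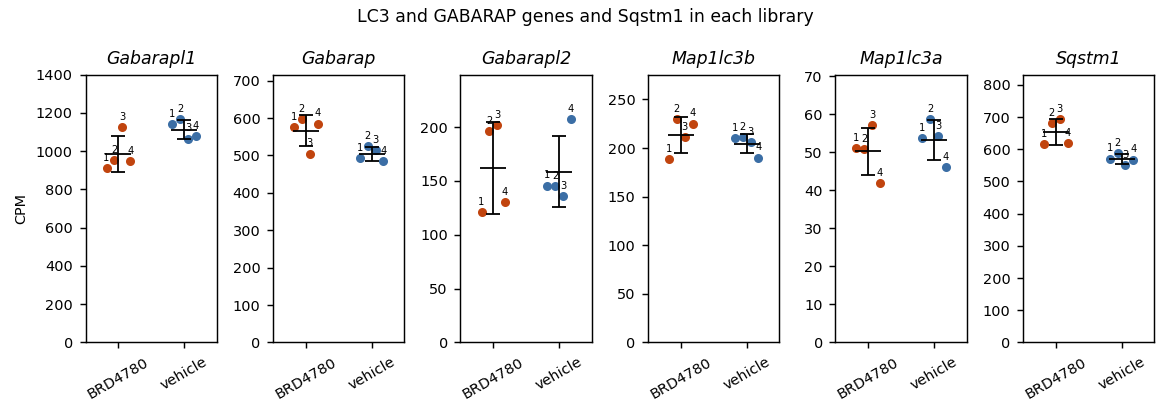
CPM of the LC3 and GABARAP genes and Sqstm1 in each library (points, numbered by replicate) with mean and SD (bars), BRD4780 left and vehicle right, on axes that start at 0. Sqstm1 separates the groups, replicate 3 leaves the other treated libraries in Gabarap and Gabarapl1, and Gabarapl2 spreads widely in both groups.

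Gabarapl2 varied most between animals of all members, with a coefficient of variation of 26.3% with BRD4780 and 20.6% with vehicle. It was at 121, 196, 202 and 130.3 CPM with BRD4780 and at 146, 145, 136 and 207 CPM with vehicle. BRD4780 replicates 2 and 3 and vehicle replicate 4 were high, at 196 CPM or more, and the other libraries were at 146 CPM or less, so the split ran across both groups and the fitted ratio had a wide 95% interval of 0.766 to 1.37 (edgeR adjusted p = 0.927). Genes beside it on chromosome 8 had the same libraries on top. Tmem231, a transition zone protein gene of the primary cilium 28.7 kb upstream by lowest coordinate, was at 13.8, 23.0, 23.9 and 14.9 CPM with BRD4780 and at 18.5, 18.3, 16.4 and 22.1 CPM with vehicle. Adat1, a tRNA deaminase gene 26.2 kb downstream by the same measure, was at 4.35, 8.25, 8.53 and 4.18 CPM with BRD4780 and at 4.20, 4.13, 4.99 and 8.24 CPM with vehicle. Its 3 high libraries were at least 1.65 times as high as any other.

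Tmem170, 77.7 kb upstream, also had these 3 libraries highest, at 4.97, 8.35, 10.2 and 4.85 CPM with BRD4780 and 7.36, 6.63, 6.45 and 10.7 CPM with vehicle. Within 250 kb on either side, 4 of 9 tested genes, Gabarapl2 included, shared these 3 highest libraries, which 79 of 13474 tested genes did (0.586%). Gabarapl2 defined these libraries, so its own match, counted in both figures, was fixed in advance. The next genes outward, Kars and Cfdp1, did not: Kars, the lysyl-tRNA synthetase gene, was at 94.1, 95.9, 88.7 and 91.5 CPM with BRD4780 and 91.0, 92.0, 91.0 and 84.0 CPM with vehicle. These neighbours were looked at after the values of Gabarapl2 were seen. BRD4780 replicate 2 and vehicle replicate 4 share the number before the point in their titles, whose meaning the labels do not give, and BRD4780 replicate 1 and vehicle replicate 2, both low, share another. Of the 50-base stretches of the Gabarapl2 transcript, 17.0% also occur in other annotated transcripts, mostly pseudogenes named Gm3724, Gm6051 and Gm5829.

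**Figure D3:**
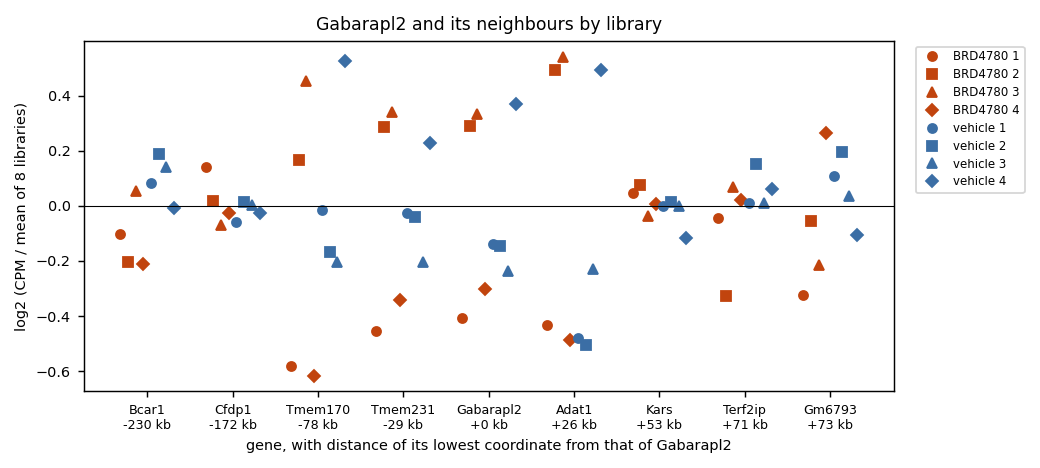
Level of Gabarapl2 and the tested genes within 250 kb in each library, as log2 of CPM over the mean of 8 libraries, with genes in chromosomal order and the distance of each lowest coordinate from that of Gabarapl2. BRD4780 replicates 2 and 3 and vehicle replicate 4 are the highest libraries from Tmem170 to Adat1 and not in the genes on either side.

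Cargo receptors held the member with the largest fold change and the most abundant of the members whose groups did not overlap. Optn (optineurin), a receptor for bacteria, aggregates and mitochondria, was at 23.1, 23.4, 20.2 and 28.0 CPM with BRD4780 and at 17.1, 20.9, 16.3 and 17.8 CPM with vehicle. Treated replicate 3 was below vehicle replicate 2, and the other treated libraries were above all vehicle libraries (log2 fold change 0.38 ± 0.12 SE, 1.297-fold, edgeR adjusted p = 0.0962). Sqstm1, whose product p62 carries ubiquitinated cargo and is itself digested (chromosome 11, 50199366 to 50210827, minus strand, mm10), was at 617, 680.3, 693 and 618 CPM with BRD4780 and at 571, 589, 552 and 568 CPM with vehicle. Every treated library was above every vehicle library, and here treated replicate 3 was the highest. The log2 fold change was 0.19 ± 0.08 (SE; 1.14-fold, 95% interval 1.014 to 1.29, edgeR adjusted p = 0.167).

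The other receptor genes overlapped between the groups. Bnip3, a mitophagy receptor induced by hypoxia, was at 214 ± 26 CPM with BRD4780 and 193 ± 16 CPM with vehicle, and the ubiquitin-binding receptor Nbr1 at 212 ± 17 CPM with BRD4780 and 227 ± 4.1 CPM with vehicle (SD, n = 4 per group). Tax1bp1, another ubiquitin-binding receptor, and Calcoco1, an ER-phagy receptor, had log2 fold changes of -0.10 and 0.04. Tecpr1, a tether between autophagosome and lysosome, was at 0.07. Over the whole list the groups did not overlap in 3 members with BRD4780 above (Atg2b, Sqstm1 and Atg13), where 7.42% of all genes had that pattern, and in 1 with BRD4780 below (Atg7), where 5.14% did.

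**Figure D4:**
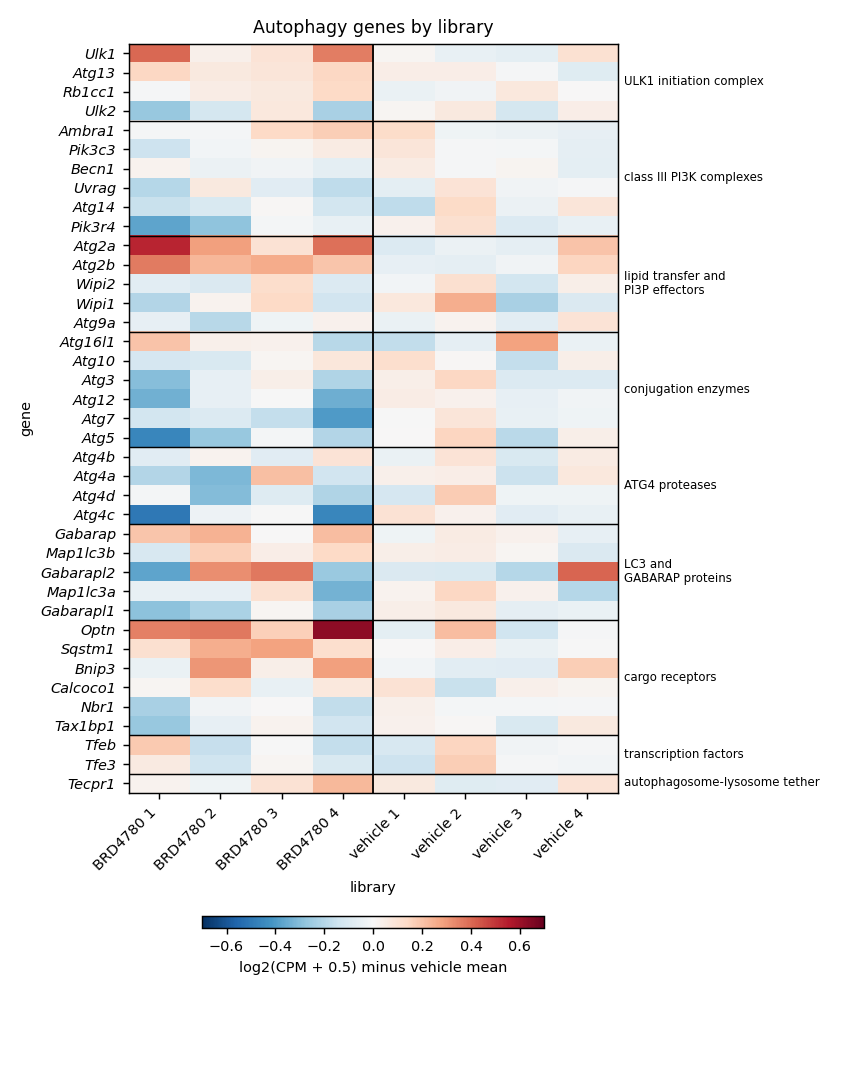
Level of each of 39 autophagy genes in each library as the difference of log2(CPM + 0.5) from the vehicle mean, in rows grouped by role, with BRD4780 libraries left and vehicle libraries right of the line. Optn, Atg2a, Atg2b, Sqstm1, Ulk1, Atg13 and, narrowly, Gabarap are above the vehicle mean in all 4 treated libraries. Atg7, Atg5, Pik3r4, Atg4d and, narrowly, Atg12 and Atg4c are below it in all 4. Gabarapl2 is high in libraries of both groups.

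The treated libraries did not depart from vehicle equally. In BRD4780 replicate 3, 29 of 39 members lay inside the vehicle range, against 16, 20 and 12 in replicates 1, 2 and 4. Without replicate 3, edgeR called 6 members, namely Atg2a (log2 fold change 0.40, adjusted p = 0.0138), Optn (0.44, 0.0195), Gabarap (0.22, 0.0331) and Atg2b (0.27, 0.0437) higher, and Gabarapl1 (-0.25, 0.0238) and Atg5 (-0.33, 0.0418) lower. That is 15.4% of the members, where 23.5% of all genes were called without that library. Leaving out BRD4780 replicate 1, 2 or 4 gave 0 called members, where 0.485%, 0.488% and 0.607% of all genes were called in turn. Leaving out vehicle replicate 1, 2, 3 or 4 also gave 0, where 0.472%, 0.229%, 0.637% and 1.7% of all genes were called. With all libraries, 0 members were called with RLE scaling (2.77% of all genes), with no filter on low counts (2.42%) or after thinning to equal totals (3.4%). With the number before the point in the titles as a block, chosen after seeing the data, 0 members were called (1.09% of all genes).

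**Figure D5:**
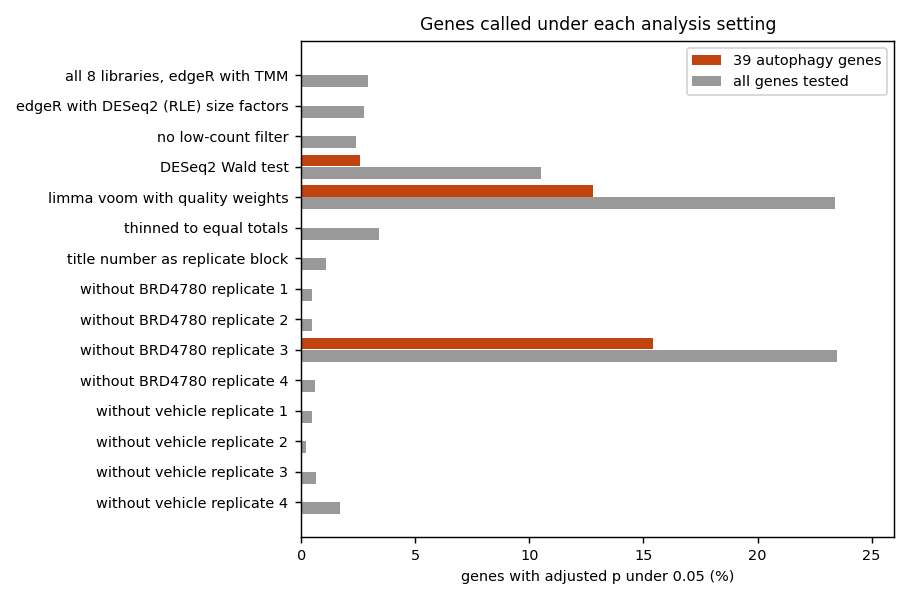
Percentage of the 39 autophagy genes (colored bars) and of all tested genes (grey bars) with an adjusted p under 0.05 under each analysis setting. A single called gene is 2.56% of the 39, so a lower colored bar is nearly forced where fewer of all genes are called. The settings also share libraries. The colored bars are below the grey bars in every setting, and without BRD4780 replicate 3 they are at 15.4% against 23.5%.

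Genes next to the core machinery were described from lists named for their roles. For comparison, 2.3% of all genes tested were called higher and 0.623% lower, and nothing particular to these lists was tested. Among 20 genes of mTORC1 (the kinase complex that restrains autophagy) and its inputs, 2 were higher and 0 lower. Eif4ebp1, an mTORC1 substrate that blocks translation initiation, was at 23.5, 31.1, 15.0 and 32.5 CPM with BRD4780 and at 11.7, 15.4, 11.1 and 10.7 CPM with vehicle, so that treated replicate 3 was just below vehicle replicate 2 (2.06-fold, log2 fold change 1.04 ± 0.22 SE, edgeR adjusted p = 0.0428). Fnip1, a folliculin partner that links AMPK to mTORC1 and TFE factors, was at 76.0, 66.2, 53.8 and 71.8 CPM with BRD4780 and at 39.2, 36.4, 46.5 and 51.9 CPM with vehicle (1.54-fold, edgeR adjusted p = 0.044). In this list the median log2 fold change was 0.09. The calls numbered 0 without BRD4780 replicate 1, 2 or 4 or vehicle replicate 1, 2 or 3, and 1 without vehicle replicate 4.

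Among further selective receptors, Retreg1, Retreg2 and Retreg3 were not found by symbol and were not analysed. Of the 14 that were found, 1 was higher and 0 lower. This was Ncoa4, which delivers ferritin to autophagosomes, at 239, 308, 267 and 333.2 CPM with BRD4780 and 198, 182, 203 and 210.25 CPM with vehicle, with every treated library on top (1.44-fold, log2 fold change 0.53 ± 0.11 SE, edgeR adjusted p = 0.0357). The call was lost without BRD4780 replicate 2 or 4 or without any single vehicle replicate. A list of 12 genes known to respond to FOXO factors in mouse muscle, factors included, repeats members except for Foxo1, Foxo3 and Sesn3. In this list 1 gene was higher and 0 lower. It was Foxo1 itself, at 65.2, 63.1, 61.2 and 69.9 CPM with BRD4780 and 43.9, 46.7, 51.9 and 47.0 CPM with vehicle, with groups well apart (1.37-fold, log2 fold change 0.45 ± 0.08 SE, edgeR adjusted p = 0.0209). The Foxo1 call was lost without BRD4780 replicate 1, 2 or 4, without vehicle replicate 1 or 2, and after thinning to equal totals.

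In the other lists 0 genes passed the edgeR threshold. At an unadjusted p under 0.05, 13.9% of all genes were higher and 10.7% lower, to be read beside the counts that follow. The autophagosome fusion list held 16 genes (3 higher and 2 lower at an unadjusted p under 0.05). Of its genes, Vmp1, Tmem41b and Tecpr2 lie outside the fusion step itself. The AMPK list held 9 genes (0 and 0). The last list held 12 autophagy genes that depend on ATF4 or CHOP in starved mouse embryonic fibroblasts (1 and 0). DESeq2 called 1 gene of the fusion list higher, and none of the AMPK genes or of those dependent on ATF4 or CHOP. The last list, 12 of the members themselves, had a median log2 fold change of -0.04 with values from -0.24 to 0.19. Without BRD4780 replicate 3 the calls were 4 higher and 3 lower in the fusion list and 1 higher in AMPK. Among the genes dependent on ATF4 or CHOP, 1 was then higher (Gabarap) and 1 lower (Atg5). Over all genes 23.5% were called without that library.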

How the data were processed

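The authors deposited estimated counts (expected counts) per gene, the unit RSEM writes, not normalized. RSEM 1.3.0, STAR 2.5.2b and Picard stand in the submitters' processing notes beside the builds mm10 and hg19, whose roles are not stated. For the annotation, read filters and strand setting no source used here gives a value. Library preparation was stranded with oligo-dT selection, per the labels' protocols. Of 39 members, 13 have an exon overlap with an opposite-strand gene in GENCODE M21 (GRCm38), and 5 (Atg4a, Atg9a, Bnip3, Gabarapl2 and Rb1cc1) share over 5% of the 50-base stretches of their longest coding transcript with other genes. How such reads were shared out was not tested. The table held 22121 lines, in which 343 symbols stood on several lines with identical values and were collapsed. It held 1 further column of values that was not used.

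Counts were rounded, filtered with filterByExpr (minimum count 10), scaled by TMM and tested by the quasi-likelihood F-test of edgeR 4.0.16 in R 4.3.3, BRD4780 over vehicle with no covariate, adjusted by Benjamini-Hochberg over 13474 genes. The standard error is the size of the log2 fold change over the square root of F. Intervals use its t distribution and cover spread between these libraries. The smallest member count in any library was 56. The fit was tested on simulated data. Alternatives were DESeq2 1.42.0, limma 3.58.1, other scaling, no filter, thinning, leaving out each library and a block on the number in the titles. CPM per kilobase uses exons of the basic annotation. Groups come from the treatment labels, and replicate numbers follow deposition order and pair nothing. Values of each library were given for the 12 members with the smallest p, the LC3 and GABARAP genes, Ulk1, Becn1, Atg5, Atg7, Sqstm1, Tfeb and Tfe3. From further lists genes past the threshold were named. Listed genes not found by symbol were left out of the counts, among them Castor1, Castor2, Rubcn, Hbb-bs and Hbb-bt. Members and lists were chosen with earlier results of these data known.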

Additional observations from a re-analysis of the deposited data

Results flagged for a closer look

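In 36 groups of 4 libraries (18 genes in each of 2 treatments), 3 held a library whose gap to its nearest neighbour exceeded Dixon's 95% critical value as a share of the group's range, and chance flags about 1 group in 20. All 3 were vehicle replicate 4. It was at 41.8 CPM for Atg2b, where the next vehicle library was at 37.0 CPM, at 50.8 CPM for Atg2a, where the next was at 42.8 CPM, and at 207 CPM for Gabarapl2, where the next was at 146 CPM. Vehicle replicate 4 was also the lowest library in summed podocyte and endothelial markers, at 74.6 and 202 CPM, and the part of this in the Atg2a and Atg2b values was not tested.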

How the results depend on the processing

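The count of 0 members in each direction stood under 11 of 14 alternatives. DESeq2 called 1 member higher and voom 4 higher and 1 lower, and over all genes they called 864 higher and 497 lower (DESeq2) and 1654 higher and 1501 lower (voom), against 310 and 84. Leaving out 1 library at a time gave 0 to 4 members higher and 0 to 2 lower, and 26 to 1647 genes higher and 5 to 1537 lower over all genes. For further selective receptors DESeq2 called 2 higher and 1 lower, voom 2 and 3, and leaving out libraries 0 to 2 and 0 to 3. For the fusion list DESeq2 called 1 higher, voom 2 higher and 3 lower, and leaving out libraries 0 to 4 and 0 to 3. For mTORC1 genes 1 was lower with DESeq2, voom or thinning, and leaving out libraries gave 0 to 4 higher and 0 to 1 lower. For AMPK genes leaving out libraries gave 0 to 1 higher. For the genes dependent on ATF4 or CHOP voom called 1 higher (Gabarap), and leaving out libraries gave 0 to 1 in each direction. For the FOXO list voom called 1 lower, thinning 0 higher, and leaving out libraries gave 0 to 1 in each direction. The members' median log2 fold change, -0.04 with all libraries, lay between -0.07 and -0.01 under the alternatives without a block, moving by less than the SD of its level over vehicle libraries (0.0434).

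Signs changed in 27 of 546 values, in 11 genes whose log2 fold change in all 8 libraries was at most 0.07 in size. Atg4b was at 0.021 with voom, and thinning gave 0.0060 for Becn1 and -0.018 for Atg16l1. Leaving out libraries gave -0.037 to 0.12 for Atg16l1, -0.058 to 0.016 for Atg4b, -0.012 to 0.074 for Calcoco1, -0.085 to 0.19 for Gabarapl2, -0.049 to 0.016 for Pik3c3, -0.091 to 0.021 for Tfe3, -0.11 to 0.027 for Tfeb, -0.13 to 0.046 for Wipi1 and -0.093 to 0.0017 for Wipi2. The cause of these changes was not tested. The replicate numbers follow deposition order and pair nothing, but 2 pairs across the groups share the number before the point in their titles, whose meaning is not given. A replicate block on that number, added after seeing the data, left 1 residual degree of freedom, and only the 4 libraries of these pairs then bear on the fold changes. It called 0 members, 57 genes higher and 90 lower, and 0 genes higher among further receptors, mTORC1 genes and the FOXO list. The members' median was -0.11, and Becn1 was at 0.031, Gabarapl2 at -0.17 and Tecpr1 at -0.0086. Deviations from the group means correlated at -0.059 and -0.33 within these pairs and at -0.32 to 0.28 in the other 14 pairs, across genes, which are not independent replicates. A floor of 3 counts was 0.101 to 0.502 CPM per library, and the lowest member, Atg4c, averaged 11.03 CPM with BRD4780 and 13.0 CPM with vehicle.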
